A study of Mus musculus with 16 samples.

Results

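Vascular adhesion and junction molecules hold the vessel wall together and let leucocytes stop on it, and 10 of their genes are described here in 4 liver cell types: Vcam1, Icam1, Icam2, Sele, Selp, Pecam1, Cdh5, Cldn5, Esam and Plvap. They were taken by symbol from the 47729 gene rows of each count file, and each symbol matched 1 row. The set was chosen by known function with the levels of these genes in the 4 cell types in view, and Vcam1 in Kupffer cells was selected on its difference between the labels, so levels are given as a description without a test.

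Endothelial cells (ECs), hepatic stellate cells (HSCs), Kupffer cells and hepatocytes came from unchallenged livers of adult mice, with 2 libraries for each cell type under a WT label and 2 under a KO label, 16 in all. KO mice carried floxed Zeb2 (exon 7), the tamoxifen-inducible Cdh5-CreERT2 transgene and an R26R CAG reporter for eGFP, whereas WT mice were littermates without Cre, and both received tamoxifen (2 mg a day for 5 days). HSCs were sorted by their ultraviolet autofluorescence, Kupffer cells by F4/80 and ECs by the pan-endothelial antibody Meca32, and hepatocytes were spun down. Meca32 binds the protein product of Plvap, and the promoter of Cdh5 drives the Cre, so that both genes took part in how the ECs were chosen or recombined. The labels do not tie a library to an animal or a pool, so the p-values measure the spread between these libraries, which may be technical.

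Leucocytes leave the blood in steps. The selectins encoded by Sele and Selp slow them on the endothelium, and the immunoglobulin family members ICAM-1, ICAM-2 and VCAM-1 then hold them through leucocyte integrins. Sele, Vcam1 and Icam1 are known targets of inflammatory signalling through NF-kB. PECAM-1, VE-cadherin (Cdh5), claudin-5 (Cldn5) and ESAM sit at the contacts between neighbouring ECs, and PLVAP forms the diaphragms of endothelial fenestrae and caveolae. Sinusoidal ECs of the liver are fenestrated and have HSCs beneath them, while Kupffer cells, the resident macrophages, sit in the sinusoid itself.

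Promoter sequences show how the inducible members differ at their start sites. A RefSeq table (GRCm38.p6, 250 bases before to 50 bases after each start) held 4 of the 10 members, and the 3 leucocyte adhesion genes among them are printed, all on the plus strand: Sele at chr1:164047984-164048283, Selp at chr1:164115014-164115313 and Icam1 at chr9:21015690-21015989. Capitals mark GGANNTTCC, the core of a kappaB-type site, TGANTCA, a looser form of an AP-1-type site with its middle base left free, and TATAAA. These letters were chosen after the sequences had been read.
Sele: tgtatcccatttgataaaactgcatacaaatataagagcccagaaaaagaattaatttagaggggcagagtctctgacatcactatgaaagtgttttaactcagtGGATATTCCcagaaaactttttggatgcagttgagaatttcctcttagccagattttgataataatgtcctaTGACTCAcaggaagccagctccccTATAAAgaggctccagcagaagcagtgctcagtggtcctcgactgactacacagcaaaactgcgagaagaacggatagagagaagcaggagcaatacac
Selp: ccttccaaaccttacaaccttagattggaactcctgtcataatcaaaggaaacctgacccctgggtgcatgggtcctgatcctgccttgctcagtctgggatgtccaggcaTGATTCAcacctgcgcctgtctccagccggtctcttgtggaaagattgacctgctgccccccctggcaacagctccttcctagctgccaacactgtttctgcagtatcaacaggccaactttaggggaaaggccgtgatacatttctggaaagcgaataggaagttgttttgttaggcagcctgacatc
Icam1: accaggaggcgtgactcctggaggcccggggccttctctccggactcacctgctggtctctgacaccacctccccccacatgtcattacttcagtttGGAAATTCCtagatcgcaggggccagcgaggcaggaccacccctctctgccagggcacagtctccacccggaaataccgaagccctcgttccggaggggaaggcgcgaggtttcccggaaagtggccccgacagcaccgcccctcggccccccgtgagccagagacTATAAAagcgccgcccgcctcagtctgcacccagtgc

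GGANNTTCC began 145 bases before the start of Sele and 153 bases before that of Icam1, and was absent from the windows of Selp and Cldn5. TGANTCA began 73 bases before the start in Sele and 139 bases before it in Selp. TATAAA began 49 bases before the start in Sele but 13 bases after the annotated start in Icam1. The fourth window, Cldn5, held none of the 3 motifs. Among all 32851 promoters of the table, read on both strands, 4.26% held GGANNTTCC, 7.81% held TGANTCA and 13.6% held TATAAA. The longer classical consensus for NF-kB was met in 8.46% of promoters and in 0 of these 4. A match describes letters only and is not a binding site.

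The libraries held between 12872706 and 15690506 counts over genes (median 14806833), so that 1 CPM, a count scaled to a library total of 1000000, rested on 13 to 16 counts and the limit that a count of 0 allows, 3 counts, stood at 0.191 to 0.233 CPM; such limits cover counting error only. Each population carried its own markers, and all 12 non-member EC markers, among them Kdr, Tek and Stab2, were above 0 in each of the 16 libraries. Other cells' markers moved with the labels. In ECs the summed level of 14 hepatocyte markers ran from 13679 to 27895 CPM under the WT label and from 2272 to 3169 CPM under the KO label. Zeb2, the targeted gene, stood at 130.1 and 198.9 CPM in KO-labelled ECs, above the 105.7 and 106.5 CPM of WT-labelled ones (log2 fold change 0.62, SE 0.24, edgeR adjusted p = 0.303), and its gene-level count covers all exons, the floxed one included. The groups are therefore named by their labels throughout.

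Claudin-5 and ESAM, 2 transmembrane proteins of the EC junction, had the highest levels of the set in ECs. Per exonic kilobase, the scale on which genes can be compared, Cldn5 stood at 1917 ± 425 CPM per kb (SD, n = 4) and Esam at 597 ± 140 CPM per kb, and neither overlapped the next gene in the order. Icam2 (199.8 CPM per kb), Icam1 (197), Plvap (168) and Pecam1 (141) followed with overlapping ranges. Cdh5 stood apart at 44.4 CPM per kb, above Vcam1 (20.7), Selp (11.5) and Sele (9.60), whose ranges again overlapped their neighbours. The order differed elsewhere, with Plvap first in HSCs (3974 ± 626 CPM per kb) and Icam1 first in Kupffer cells (389 ± 164) and in hepatocytes (13.7 ± 5.1).

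**Figure D1:**
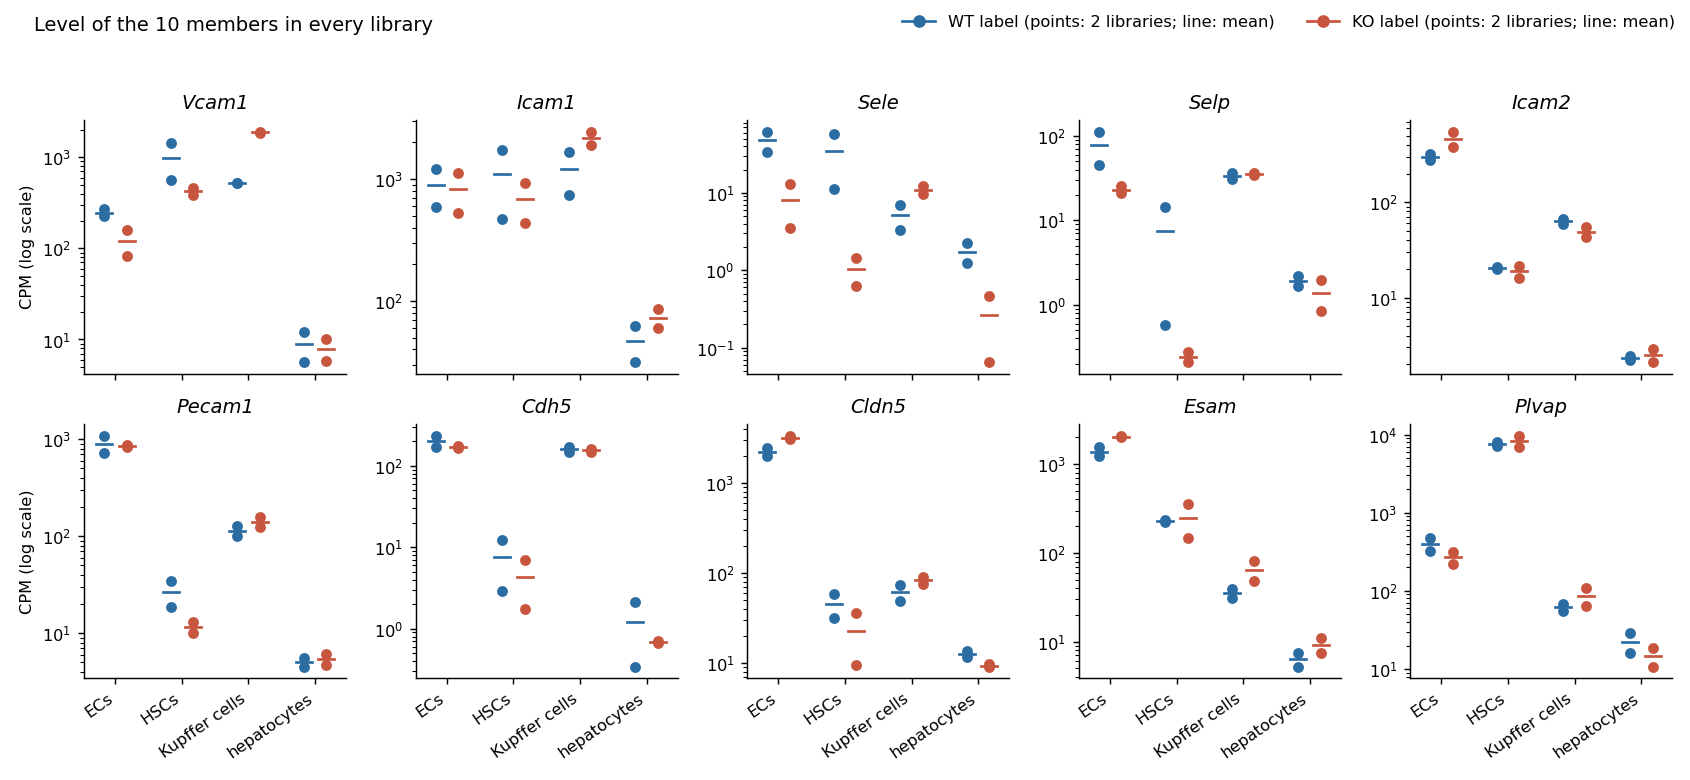
Level of the 10 genes in each of the 16 libraries, in CPM on a log axis, by cell type; points are libraries, short lines the means of 2, blue the WT label and red the KO label. Cldn5, Esam, Pecam1 and Icam2 were highest in ECs without overlap, Plvap was highest in HSCs, and the 2 Kupffer cell libraries labelled KO stood highest for Vcam1 (1855 and 1917 CPM).

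Of the 10 genes, 7 had their highest mean CPM in ECs: Icam2, Sele, Selp, Pecam1, Cdh5, Cldn5 and Esam. For Sele and Selp this rested on the WT-labelled ECs, and on WT library 34 among them: 5 genes were left with EC highest when that library was left out or when KO-labelled libraries alone were read, and under the KO label Kupffer cells averaged 11.0 CPM of Sele against 8.21 CPM in ECs and 35.4 CPM of Selp against 23.1 CPM. On TMM-normalized CPM the count was 6, without Cdh5. Cldn5 was found at 2003 to 3346 CPM in ECs, at 49.3 to 90.9 CPM in Kupffer cells, at 9.61 to 59.0 CPM in HSCs and at 9.15 to 13.5 CPM in hepatocytes. The last 3 ranges overlapped their neighbours, whereas the EC range lay far above them. Esam ran from 1227 to 2081 CPM in ECs and from 146 to 353 CPM in HSCs, with Kupffer cells (30.9 to 80.3 CPM) and hepatocytes (5.23 to 11.0 CPM) lower still and no overlap between any 2 cell types.

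Pecam1, whose product takes part in leucocyte passage between ECs, fell into 4 separate ranges. They were 717 to 1085 CPM in ECs, 101 to 156 CPM in Kupffer cells, 9.95 to 34.5 CPM in HSCs and 4.50 to 6.07 CPM in hepatocytes. Icam2, a constitutive ligand of the leucocyte integrin LFA-1, was ordered in the same way, with means of 380 ± 121, 56.3 ± 9.9, 19.6 ± 2.4 and 2.42 ± 0.35 CPM (SD, n = 4).

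VE-cadherin is the adherens junction protein by which ECs are commonly recognised, yet its gene was nearly as abundant in Kupffer cells. Cdh5 stood at 165 to 234 CPM in the 4 EC libraries and at 147 to 172 CPM in the 4 Kupffer cell libraries, overlapping ranges whose means were 187 ± 32 and 157 ± 11 CPM (SD). In HSCs it stood at 1.73 to 12.4 CPM and in hepatocytes at 0.341 to 2.1 CPM. The Kupffer cell mean was 84.2% of the EC mean. By the same measure the 12 EC markers reached a median of 3.11% in Kupffer cells, with 1.60% as the lowest and 8.34%, for Stab2, as the highest.

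Selp, which encodes the P-selectin stored in platelets and ECs, was also found in Kupffer cells, at 30.6 to 36.7 CPM, within the EC range of 20.9 to 113 CPM. Summed platelet and megakaryocyte markers stood at 41.1 to 140.5 CPM in Kupffer cells and 26.5 to 64.1 CPM in ECs, with 3 or 4 of the 9 genes at 0 in each Kupffer cell library, and their part in the Selp level was not tested. HSCs held 3 to 226 counts of Selp and hepatocytes 13 to 32 counts. E-selectin is made by activated ECs, and its gene had the lowest level per kilobase of the set in ECs and Kupffer cells. Sele ran from 3.48 to 61.9 CPM in ECs and from 0.622 to 57.4 CPM in HSCs, ranges wider than the difference between these 2 cell types.

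Vcam1 and Icam1 were not highest in ECs. Vcam1 averaged 1205 ± 787 CPM in Kupffer cells, 709 ± 482 CPM in HSCs, 184 ± 81 CPM in ECs and 8.41 ± 3.22 CPM in hepatocytes (SD, n = 4). Kupffer cells and HSCs overlapped because their order differed by label. Under the WT label both HSC libraries (1424 and 559 CPM) lay above both Kupffer cell libraries (525 and 522 CPM), and under the KO label both Kupffer cell libraries (1917 and 1855 CPM) lay above the HSCs (464 and 390.3 CPM). Every HSC library (390.3 CPM or more) lay above every EC library (268 CPM or less). Icam1 averaged 1695 ± 714 CPM in Kupffer cells, 894 ± 611 CPM in HSCs and 860.3 ± 351 CPM in ECs, 3 overlapping ranges, against 59.7 ± 22.1 CPM in hepatocytes.

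Plvap reached 6825 to 9616 CPM in HSCs against 222 to 471 CPM in ECs, a mean 23.7 times that of ECs, and ranked between 7 and 11 among all genes of the HSC libraries. Kupffer cells held 56.0 to 108 CPM and hepatocytes 10.7 to 29.1 CPM. The 12 EC markers had a median of 2.68% of their EC mean in HSCs, the highest being Eng at 39.4%, so that Plvap lay above each of them. Its exons overlap no annotated exon of another gene (GRCm38, chr8:71497765-71511752, minus strand).

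**Figure D2:**
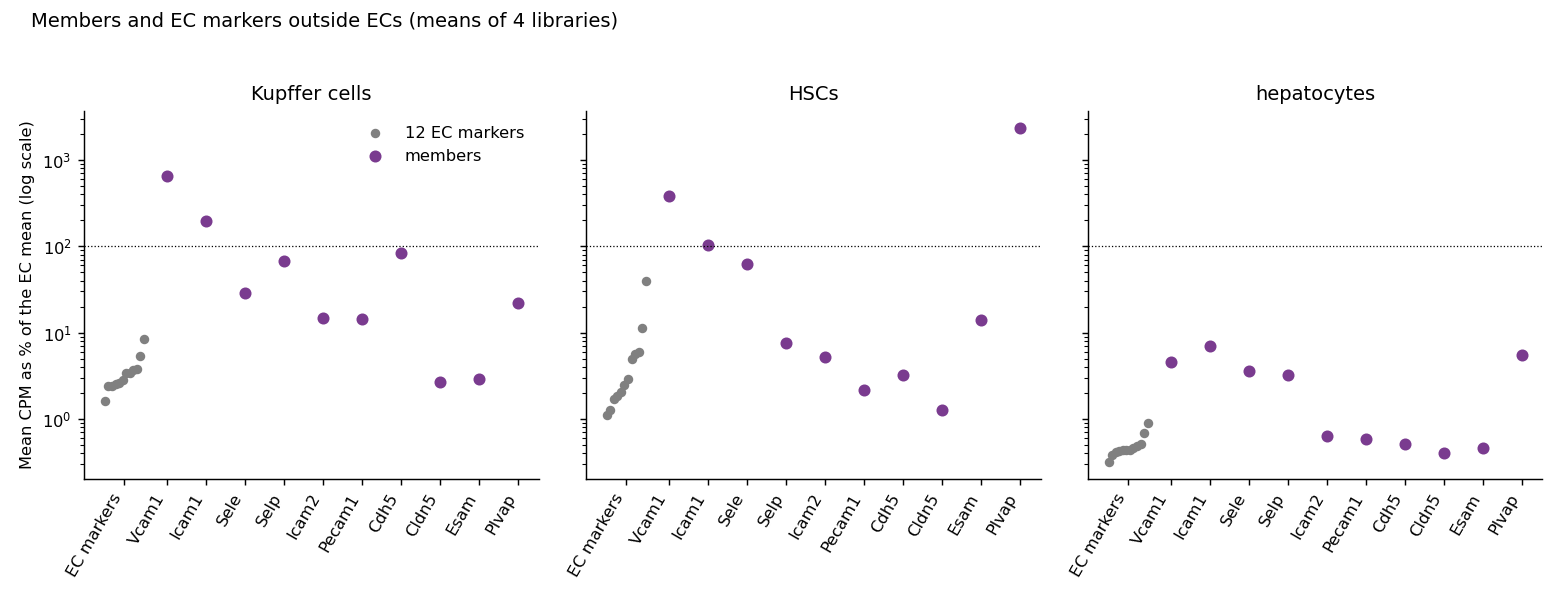
Mean CPM of each gene (purple) and of the 12 EC markers (grey) in Kupffer cells, HSCs and hepatocytes as a percentage of the mean in ECs, on a log axis, with n = 4 libraries a cell type; the dotted line marks 100%. Cdh5 in Kupffer cells (84.2%) and Plvap in HSCs (2369%) lie far above the EC markers, while Cldn5 and Esam in Kupffer cells (2.67% and 2.90%) lie among them.

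Against the EC markers, 8 of the 10 genes in Kupffer cells had a larger share of their EC mean than any of the 12 markers, the exceptions being Cldn5 and Esam. In HSCs this held for Vcam1, Icam1, Sele and Plvap, and in hepatocytes for these 4 and Selp. For Sele in HSCs it rested on WT library 32, at 57.4 CPM, while the other HSC libraries held 0.622 to 11.1 CPM. In bulk libraries, fewer cells of a type and less RNA per cell cannot be told apart.

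To see whether the genotype label went with these genes, KO and WT libraries were compared within each cell type by edgeR's quasi-likelihood test over all genes. In ECs none of the 10 genes passed an adjusted p of 0.05, where 2.08% of the 14631 genes tested did; 3 of them (Vcam1, Sele and Selp) had an unadjusted p under 0.05, against 15% of all genes, and DESeq2 called Sele and Selp, against 6.39% of all genes. All 3 genes were lower under the KO label, whereas Icam2, Cldn5 and Esam were higher in both KO libraries than in both WT libraries.

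Sele counted 61.9 and 33.6 CPM in the WT-labelled ECs and 3.48 and 12.9 CPM in the KO-labelled ones. The groups did not overlap, with a log2 fold change of -2.52 (SE 0.67, edgeR adjusted p = 0.152, DESeq2 adjusted p = 4.76e-04). For Selp the levels were 113 and 44.7 CPM against 25.3 and 20.9 CPM, again without overlap (log2 fold change -1.78, SE 0.45, edgeR adjusted p = 0.134, DESeq2 adjusted p = 0.00157). Vcam1 stood at 268 and 227 CPM under the WT label and at 82.2 and 158 CPM under the KO label (log2 fold change -1.03, SE 0.36, edgeR adjusted p = 0.267). Single libraries moved these values: Vcam1 came to -0.58 without KO library 6, Sele to -3.83 without KO library 46 and Selp to -0.92 without WT library 34.

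Icam1, the fourth inducible gene, did not follow them: its levels were 1201 and 593 CPM under the WT label and 524 and 1123 CPM under the KO label, overlapping fully. Cldn5 stood at 2455 and 2003 CPM under the WT label and 3053 and 3346 CPM under the KO label (log2 fold change 0.52, SE 0.29, edgeR adjusted p = 0.461). Esam gave 1542 and 1227 CPM against 1996 and 2081 CPM, and Icam2 gave 317 and 274 CPM against 380.1 and 550.3 CPM. Both KO libraries were higher for these 3 genes, as they were for 24.2% of all genes tested in ECs. Plvap was at 471 and 321 CPM against 222 and 319 CPM, Pecam1 at 1085 and 717 CPM against 880.2 and 838 CPM, and Cdh5 at 234 and 171 CPM against 177 and 165 CPM. With Plvap, 4 of the 10 genes lay below both WT libraries, against 24.1% of all genes.

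**Figure D3:**
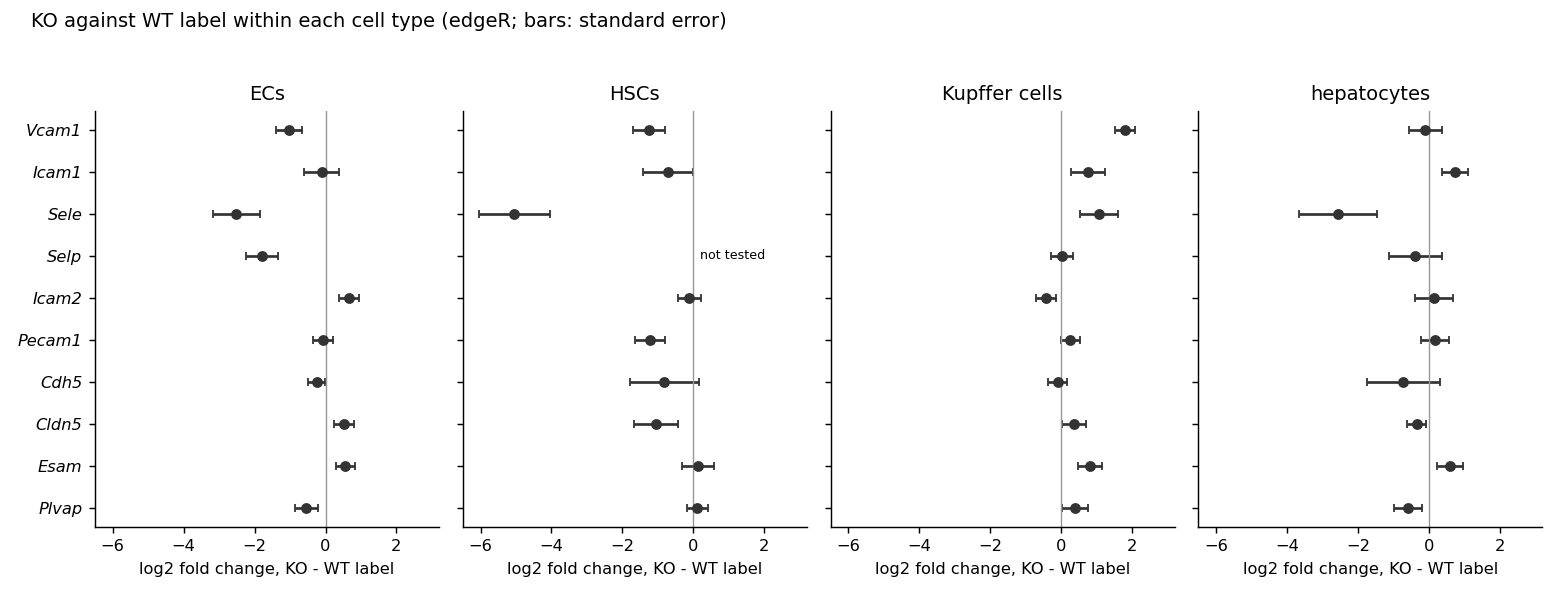
Log2 fold change, KO minus WT label, of the 10 genes within each cell type from edgeR, with bars of 1 standard error; 2 libraries per label, and Selp in HSCs was below the count filter. None passed an adjusted p of 0.05; Sele lay farthest below 0 in HSCs (-5.05) and Vcam1 farthest above 0 in Kupffer cells (1.79).

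Markers moved with the label in the same EC libraries. Hepatocyte markers were lower under the KO label, as given above, lymphocyte markers summed to 124.5 and 237 CPM under the WT label and 62.4 to 66.6 CPM under the KO label, and the 12 EC markers to 24662 and 30636 CPM against 35755 and 36519 CPM. HSC markers, of which all 12 were lower and 11 had an unadjusted p under 0.05, summed to 1385 and 1678 CPM under the WT label and to 581 and 835 CPM under the KO label, and Kupffer cell markers to 976 and 606 CPM against 1289 and 1301 CPM. Read per 1000 CPM of those EC markers, Cldn5 was at 80.2 and 81.2 under the WT label and at 85.4 and 91.6 under the KO label, and Esam at 50.3 and 49.8 against 55.8 and 57.0. On that scale Vcam1 was at 8.73 and 9.22 against 2.30 and 4.32, and Sele at 2.02 and 1.36 against 0.0974 and 0.354. Other genes read differently there: Icam2 overlapped, at 10.3 and 11.1 against 10.6 and 15.1, while Cdh5 (7.63 and 6.94 against 4.94 and 4.51) and Pecam1 (35.4 and 29.1 against 24.6 and 22.9) lay lower under the KO label without overlap. In CPM the labels overlapped for Cdh5 and Pecam1. The marker sum was itself higher under the KO label, which lowers a ratio to it. The share of all genes apart on that scale was not counted. The 12 EC markers were split, 7 with a positive and 5 with a negative log2 fold change. Clec4g, the most abundant, averaged 6217 CPM under the WT label and 9869 CPM under the KO label, and Kdr 2215 and 1831 CPM. The markers' part in these differences was not tested beyond this ratio.

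In HSCs edgeR called 0 of 14390 genes at an adjusted p of 0.05 (0%) and thus none of the 9 members tested, while 8.75% of genes and 3 members had an unadjusted p under 0.05. Those 3, Sele, Vcam1 and Pecam1, were each lower in both KO libraries, as 19.3% of all genes were. DESeq2 called Sele and Selp, against 2.7% of all genes. Sele gave 897 and 174 counts (57.4 and 11.1 CPM) under the WT label and 9 and 21 counts (0.622 and 1.45 CPM) under the KO label, with a log2 fold change of -5.05 (SE 0.998, edgeR adjusted p = 0.334, DESeq2 adjusted p = 1.14e-07). The groups did not overlap, although the 2 WT libraries were themselves far apart.

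Vcam1 in HSCs was at 1424 and 559 CPM under the WT label and at 464 and 390.3 CPM under the KO label (log2 fold change -1.25, SE 0.46, edgeR adjusted p = 0.540). WT library 32 carried much of it, for without that library the value came to -0.40, and that of Sele to -3.40. Icam1 overlapped, at 1745 CPM in WT library 32 and 467 CPM in WT library 40 against 433 and 932 CPM (edgeR adjusted p = 0.855). Pecam1 was at 34.5 and 18.6 CPM against 9.95 and 13.1 CPM (edgeR adjusted p = 0.504). Selp rested on 226 and 9 counts under the WT label and on 4 and 3 counts under the KO label, the latter close to the limit of 3 counts. Plvap, the most abundant of the set there, was at 7169.8 and 7976 CPM against 6825 and 9616 CPM, with the WT values inside the KO range.

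By the median share of the 12 EC markers, WT library 32 stood highest of the 4 HSC libraries. The share was 3.75% of their EC mean, against 2.32% in WT library 40 and 1.97% and 2.76% in the KO libraries. By summed level the order differed, with WT library 32 lowest at 3330 CPM. WT library 40 held 3472 CPM and the KO libraries 3338 and 3350 CPM. Sele per Cdh5 was 4.65 and 3.78 in the WT-labelled HSCs and 0.360 and 0.210 in the KO-labelled ones, a ratio resting on 25 to 193 counts of Cdh5. In ECs it was 0.265 and 0.196 under the WT label and 0.0197 and 0.0785 under the KO label. Hepatocyte markers in HSCs summed to 3820 and 8857 CPM under the WT label and to 695 and 1717 CPM under the KO label, and the part of EC and hepatocyte RNA in the results was not tested.

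**Figure D4:**
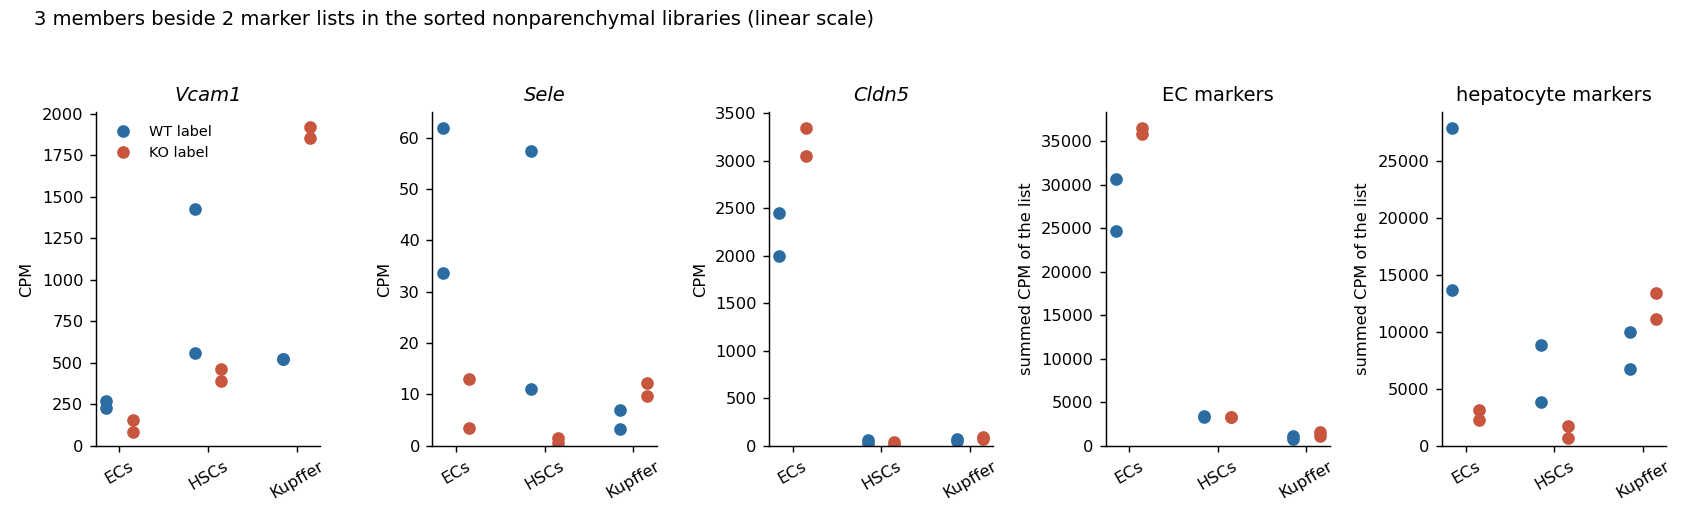
Vcam1, Sele and Cldn5 (CPM) beside the summed CPM of 12 EC markers and 14 hepatocyte markers in the EC, HSC and Kupffer cell libraries, on linear axes from 0; points are libraries, blue WT and red KO label. Vcam1 was lower under the KO label in ECs and HSCs and higher in Kupffer cells. Hepatocyte markers ran in the same directions (2272 to 3169 against 13679 to 27895 CPM in ECs, 11135 to 13437 against 6711 to 9980 CPM in Kupffer cells). Hepatocytes themselves held 5.59 to 12.2 CPM of Vcam1, and the part of hepatocyte RNA was not tested.

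Among the members, Vcam1 differed most between the labels in Kupffer cells, the difference for which it was selected. Genes outside the set differed more by log2 fold change there, among them Gja1 (2.06, SE 0.41) and Marco (-3.38, SE 1.22). Vcam1 stood at 525 and 522 CPM in the 2 libraries labelled WT and at 1917 and 1855 CPM in the 2 labelled KO, a 3.46-fold difference (log2 fold change 1.79, SE 0.29). The WT libraries were nearly equal, and the lower KO library was far above both. edgeR called 0 of 13867 genes in Kupffer cells (0%), and gave Vcam1 an unadjusted p of 6.56e-04, the second smallest of all, and an adjusted p of 0.933. DESeq2 put it past the threshold (adjusted p = 1.92e-05), where it called 0.51% of genes. Since the gene was chosen for this difference, these p-values are a description. Dropping any single library gave values from 1.68 to 1.91.

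Among the other 9 genes in Kupffer cells, 0 had an unadjusted p under 0.05, against 5.09% of all genes. Icam1 was at 1677 and 744 CPM under the WT label and 1902 and 2459 CPM under the KO label, without overlap but with a wide WT pair. Sele counted 3.35 and 6.92 CPM against 12.3 and 9.75 CPM, and Esam 30.9 and 39.0 CPM against 80.3 and 48.0 CPM. With Vcam1 and Cldn5, 5 genes lay above both WT libraries, where 20.5% of all genes did. Icam2 lay below both (59.7 and 67.2 against 54.8 and 43.6 CPM), where 16.1% of all genes did. Selp and Cdh5 had near equal means under both labels, 33.7 and 35.4 CPM for Selp and 159 and 155 CPM for Cdh5.

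Several marker lists were higher in the same KO-labelled Kupffer cells. Hepatocyte markers summed to 6711 and 9980 CPM under the WT label and to 11135 and 13437 CPM under the KO label, EC markers to 795 and 1078 CPM against 1185 and 1635 CPM, and neutrophil markers to 19.9 and 22.8 CPM against 23.4 and 214 CPM. HSC markers, 11 of 12 with a positive log2 fold change (median 0.79), summed to 791 and 622 CPM against 1258 and 585 CPM. Kupffer cell markers summed to 55452 and 66811 CPM against 52718 and 53062 CPM. The part of these shifts in the differences, that of Vcam1 included, was not tested.

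Hepatocytes had the lowest mean of the 4 cell types for all 10 genes, although for Selp this rested on HSC WT library 32 alone, the other 3 HSC libraries (0.207 to 0.576 CPM) lying below every hepatocyte library (0.838 to 2.18 CPM). There edgeR called 0 of 11548 genes (0%), with 7.11% of genes but 0 members at an unadjusted p under 0.05. DESeq2 called 0 members there and 0.246% of genes. Icam1, the highest of the set, was at 62.2 and 31.3 CPM under the WT label and 60.1 and 85.3 CPM under the KO label. Sele rested on 35 and 18 counts against 1 and 7 counts. Sele and Cldn5 lay below both WT libraries, as 23.2% of all genes did, and Esam above both, as 16.4% did.

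The KO-label difference of Vcam1 ran in opposite directions in ECs and HSCs on the one hand and Kupffer cells on the other. Tested as a difference of differences over the 16 libraries, none of the 10 genes passed an adjusted p of 0.05 in any of the 6 pairs of cell types; 13 of 60 gene and pair combinations had an unadjusted p under 0.05. Of all 17214 genes, the adjusted test called 0.0349% for ECs against HSCs, 2.07% for ECs against Kupffer cells, 0.0697% for ECs against hepatocytes, 0.593% for HSCs against Kupffer cells, 0.0116% for Kupffer cells against hepatocytes and lastly 0.0755% for HSCs against hepatocytes. Unadjusted, the shares in the same order were 4.85%, 14%, 9.12%, 11.7%, 8.18% and 7.16%. Because Vcam1 was selected on its Kupffer cell values, its p-values here are a description too.

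Genes that work with the members were read from 5 lists, 73 genes in all, in the same 4 fits. In ECs 7 of 69 tested (10.1%) passed, 1 of them higher in KO-labelled ECs and 6 lower, beside 2.08% of all genes (17 higher, 288 lower). In HSCs, Kupffer cells and hepatocytes edgeR passed 0 of these genes, as it did 0% of all genes. HSCs had 15 of 67 at an unadjusted p under 0.05, all lower, beside 8.75% of all genes. Kupffer cells had 4 of 67, all higher, beside 5.09%, and hepatocytes 7 of 58 beside 7.11%. Cd34, a sialomucin of continuous endothelium, rose from 71.3 and 61.3 CPM to 231 and 194 CPM (log2 fold change 1.67, SE 0.22, edgeR adjusted p = 0.0293), alone past the threshold among the other vascular adhesion molecules (13 tested, median log2 fold change -0.11 beside -0.01 over all genes). Emcn, another sialomucin, averaged 310.2 and 612.5 CPM (adjusted p = 0.140) and Cd47 743 and 940.1 CPM (adjusted p = 0.581).

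Tnfaip3 and Tnfrsf1b fell, 2 of the 12 genes listed for NF-kB feedback and cytokine receptors (median -0.30). Tnfaip3, whose product A20 restrains NF-kB, went from 408 and 209 CPM to 51.3 and 61.9 CPM (log2 fold change -2.45, SE 0.38, edgeR adjusted p = 0.0366). Tnfrsf1b, a receptor for tumour necrosis factor, went from 36.5 and 28.7 CPM to 10.9 and 7.72 CPM (log2 fold change -1.82, SE 0.32, edgeR adjusted p = 0.0495). Nfkbia, the list's most abundant gene, had means of 1058 CPM under the WT label and 1099 CPM under the KO label (adjusted p = 0.968).

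Among tight and gap junction genes (19 tested, median -0.30), Cldn1, Cldn3 and Lsr fell in ECs. Cldn3, for example, went from 38.7 and 87.1 CPM to 12.4 and 6.74 CPM (log2 fold change -2.72, SE 0.47, edgeR adjusted p = 0.0469). All 3 are epithelial junction genes with their highest mean in hepatocytes, from 122 CPM for Cldn1 to 252 CPM for Lsr. Gja1, which encodes the gap junction protein connexin 43, averaged 815 and 413 CPM (adjusted p = 0.460) and F11r 365 and 504 CPM (adjusted p = 0.402). Of the 12 adherens junction partners (median -0.34), 3 were lower and 1 higher at an unadjusted p under 0.05, and 1 passed the adjusted threshold. This was Cdh2, which fell from 7.54 and 9.87 CPM to 0.487 and 0.417 CPM (log2 fold change -4.24, SE 0.65, edgeR adjusted p = 0.0361); it encodes N-cadherin and was highest in HSCs, at 199 CPM. Ptprb, the VE-cadherin phosphatase partner, averaged 2107 and 1638 CPM (adjusted p = 0.579).

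Counter-receptors and ligands on leucocytes had 0 of 13 genes past the threshold in ECs (median -0.87), with 4 lower at an unadjusted p under 0.05. Itgb2, the chain shared by the ICAM-binding integrins, averaged 69.0 and 37.6 CPM there, and Cd44 36.4 and 18.5 CPM (adjusted p = 0.336 and 0.147). Both were highest in Kupffer cells, at 1020 and 914 CPM over the 4 libraries. None of the 7 calls in ECs stood in every setting. With 1 library left out, log2 fold changes ran from 1.547 to 1.828 for Cd34, -2.866 to -1.835 for Tnfaip3 and -2.013 to -1.593 for Tnfrsf1b. A fit without hepatocyte-enriched genes, in which Cdh2, Cldn1, Cldn3 and Lsr were themselves left out, called 0 of 13798 genes (0%). It thus called none of the remaining 3, whose log2 fold changes were 1.63 for Cd34, -2.49 for Tnfaip3 and -1.86 for Tnfrsf1b (edgeR adjusted p = 0.144, 0.152 and 0.180).

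The genes most like each member were sought over the 16 libraries by Pearson's r of log2 CPM among 14342 other genes. Birc3 (r = 0.980) and Nfkb2 (r = 0.976), 2 genes of the NF-kB list, were most like Icam1, and Fam49a (r = 0.976) most like Vcam1. Bgn, which encodes biglycan of the extracellular matrix, was most like Plvap (r = 0.996), and Cd84, a leucocyte receptor, most like Cdh5 (r = 0.990). Stab1, a scavenger receptor, was most like Pecam1 (r = 0.986), Oit3 most like Cldn5 (r = 0.993), Nde1 most like Esam (r = 0.994) and Maf most like Icam2 (r = 0.989). The selectins had looser partners, Prkci for Sele (r = 0.901) and Arl6ip1 for Selp (r = 0.928). Within the set Icam2 and Pecam1 (r = 0.967) and Vcam1 and Icam1 (r = 0.932) were among the closest pairs. The points share cell type and label, so that these values describe the 4 cell types more than single libraries.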

How the data were processed

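RNA of the 4 cell types was sequenced on a HiSeq2500; the series' design text names Smart-seq2 and the sample labels a TruSeq stranded mRNA kit. The authors deposited raw counts of reads per gene for each library; the submitters' processing notes name Trimmomatic 0.32, HISAT2 2.1.0, HTSeq 0.9.1, edgeR and GRCm38, while annotation release and strand setting are not given in the sources used here. Counter summary lines (42.5 to 57.5% of each file's total) were left out. CPM was computed over 47729 gene rows, and exonic length, positions and overlaps were taken from GENCODE M21, which held 99.1% of the gene IDs. Vcam1, Icam1 and Selp overlap antisense or long noncoding genes by 61 to 511 exonic bases, which unstranded counting could not tell apart.

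edgeR 4.0.16, run under R 4.3.3, compared KO with WT labels separately for the 4 cell types (filterByExpr, TMM, quasi-likelihood test, Benjamini-Hochberg over all genes tested, threshold 0.05), and the effects of 2 cell types by an interaction term over 16 libraries. Scripts were tested on simulated data. DESeq2 1.42.0, other scalings and filters, a fit without 857 hepatocyte-enriched genes and leaving out each library were the alternatives; library totals without TMM, and all alternatives for the other pathway genes, were added after seeing the data. The members and lists were chosen with earlier results of these data known. Of the pathway lists, genes past the threshold (at most 3 per list and cell type) and others of highest mean CPM were named, as was the gene most like each member. Cd99 matched no row. No 2 libraries of a group agreed within sampling noise.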

Additional observations from a re-analysis of the deposited data

Results flagged for a closer look

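Of the 10 genes, 4 showed a KO-label difference of opposite sign in 2 cell types, with the 2 libraries of each label apart in both. The share of all genes meeting this rule was not counted, so the 4 cannot be read as a trait of the set. Within 1 cell type, the share of all genes apart in a given direction ran from 16.1% (below, Kupffer cells) to 24.2% (above, ECs). Each was tested as a difference of log2 fold changes by edgeR over the 16 libraries, and none passed an adjusted p of 0.05. Since the genes were picked for these signs, and Vcam1 also for its Kupffer cell values, the p-values describe the size of each difference against its error and are not independent evidence. For Vcam1 the effect in ECs minus that in Kupffer cells was -2.84 (SE 0.68, edgeR adjusted p = 0.0563), and the effect in HSCs minus that in Kupffer cells was -3.06 (SE 0.68, edgeR adjusted p = 0.0715). Sele gave -3.62 for ECs minus Kupffer cells (edgeR adjusted p = 0.20), -6.15 for HSCs minus Kupffer cells (edgeR adjusted p = 0.0640) and 3.65 for Kupffer cells minus hepatocytes (edgeR adjusted p = 0.541). The last of these rests on 1 and 7 counts in the KO-labelled hepatocytes. Icam2 gave 1.06 for ECs minus Kupffer cells (edgeR adjusted p = 0.247). Cldn5 gave 0.82 for ECs minus hepatocytes (edgeR adjusted p = 0.886) and 0.68 for Kupffer cells minus hepatocytes (edgeR adjusted p = 0.850). The HSC values leaned on WT library 32, without which the KO-label log2 fold change in HSCs was -0.40 for Vcam1 and -3.40 for Sele. Groups of 2 libraries are too small for a test of a sample standing apart.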

How the results depend on the processing

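With 2 libraries a group, the spread between them sets the error, and low counts add to it in hepatocytes (as few as 1 for Sele and 5 for Cdh5) and, for Sele, Selp and Cdh5, in HSCs. No paired analysis was possible because the numbers in the titles are not shared between the groups. edgeR called 0 members in each cell type, whereas DESeq2 called 2 in ECs, 2 in HSCs and 1 in Kupffer cells (Sele and Selp in the first and second, Vcam1 in the last), edgeR without a filter on low counts called 3, 3 and 1 (5.26%, 2.7% and 0.704% of all genes), and the fit of all 16 libraries called 1 in HSCs (Sele; 1.03% of all genes). Leaving out 1 library left a lone library of that label, assumed to vary like the other pair, so for the members fold changes alone are given. That of Selp in ECs ran from -2.31 to -0.92. Differences between cell types were called for 0 members in the main fit. RLE size factors called 1 (Vcam1), beside 0.0116% to 2.08% of all genes by pair. DESeq2 called 3 (Vcam1, Sele and Selp), beside 0.662% to 7.35%, and the fit without a filter called 3, beside 1.03% to 4.42%. Other pathway genes called in ECs numbered 7, but 15 without a filter, 4 with all 16 libraries, 4 with library totals, 0 with hepatocyte-enriched genes left out and 0 to 9 with 1 library left out. Of all genes in ECs, the main fit called 2.08% and the fit without a filter 5.26%. The share was 2.46% with all 16 libraries, 1.3% with library totals and 0% with hepatocyte-enriched genes left out. The counts with 1 library left out rest on a lone library and are a description only. In HSCs 2 of the other pathway genes were called by DESeq2 (2.7% of all genes), 8 without a filter (2.7%) and 1 with all 16 libraries (1.03%). Kupffer cells had 1 by DESeq2 (0.51%) and 2 without a filter (0.704%), and hepatocytes 6 without a filter (1.14%). The cause of these differences was not tested. The count of 7 genes highest in ECs came to 6 on TMM-normalized CPM, 5 with KO libraries only (chosen after seeing the data) and 5 to 7 with 1 library left out (5 without EC WT library 34), and of 270 fold changes of members under the alternatives that keep all libraries 0 reversed. With 1 library left out, 16 of 156 reversed, and their ranges were, in ECs, -0.83 to 0.54 (Icam1), -0.36 to 0.30 (Pecam1) and -0.48 to 0.036 (Cdh5); in HSCs -1.46 to 0.56 (Icam1), -0.42 to 0.13 (Icam2), -2.24 to 0.58 (Cdh5), -0.75 to 0.66 (Esam) and -0.24 to 0.39 (Plvap); in Kupffer cells -0.049 to 0.084 (Selp); and in hepatocytes -0.51 to 0.50 (Vcam1), -0.037 to 0.31 (Icam2), -1.19 to 0.15 (Selp), -0.10 to 0.41 (Pecam1) and -1.48 to 1.01 (Cdh5). Scaling moved the median of all genes by at most 0.06 (log2).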
